A study of Homo sapiens with 16 samples.

Results

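The 9 genes described here encode RNA-binding proteins that recognise AU-rich elements, or in the case of CELF1 GU-rich elements, in messenger RNA. They are ZFP36, ZFP36L1, ZFP36L2, ELAVL1, HNRNPD, KHSRP, TIA1, TIAL1 and CELF1. They were chosen by gene name, and all 9 were found among the 14857 genes of the deposited table. AU-rich elements are short uridine- and adenosine-rich stretches in the 3′ UTRs of many cytokine, growth factor and early-response mRNAs. The proteins that bind them compete or cooperate. The zinc finger proteins of the ZFP36 family, HNRNPD (AUF1) and KHSRP are known mostly for promoting decay, ELAVL1 (HuR) for stabilising mRNA, and TIA1 and TIAL1 for repressing translation and building stress granules.

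The study used MDA-MB-231, a human triple-negative breast cancer line, with a tet-off construct, whose insert is off while doxycycline is present. The empty-vector (EV) clones A and B (EV_A and EV_B) were compared with clones E11 and H3 carrying tristetraprolin, TTP (TTP_E11 and TTP_H3), the protein that ZFP36 encodes. Each of the 4 clones gave 4 biological replicates, 16 libraries in all. All cells were kept under G418 and hygromycin B, doxycycline at 2 µg/mL is stated for the cells with TTP, and the drugs were washed out for at least 24 h before experiments. With 2 clones in each arm, TTP, clonal difference and doxycycline history cannot be told apart. P-values below from fits with 4 clone groups rest on how much replicate cultures of the same clone varied. Permutation p-values treat all libraries as exchangeable, though each arm comes from 2 clones. Those from clone means or from 2 groups draw also on the spread between clones.

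Samples were grouped by library name, since the titles of 7 of the 8 TTP libraries say EV. The reads on listed genes numbered 14380767 to 22066098 per library. Replicate 4 of EV_B and replicate 3 of TTP_H3 stood apart from the other libraries of their clones, with SDs of 0.162 and 0.206 for the log2 difference from the other 3, against 0.0847 to 0.132 elsewhere. All 5 markers of the line that were examined (VIM, CD44, CAV1, AXL and EGFR) were listed, at clone means of 6063 to 38240 normalized counts (reads divided by the authors' size factor). Their summed level was 105100 to 108500 in EV and 77860 to 83830 in TTP libraries, though EGFR stood higher in the TTP clones (6870 and 6902) than in the EV clones (6099 and 6063). ESR1 and PGR were not among the listed genes, and ERBB2 ranged from 2085 to 2345 in EV and from 2437 to 2963 in TTP libraries. Of the markers of other cell types, 0 of 3 endothelial, 2 of 5 immune and 3 of 4 luminal epithelial genes were listed. The summed immune level was 63 to 152.7 in EV and 42.18 to 77.63 in TTP libraries, and the luminal level, mostly KRT8, was 14100 to 18020 and 13870 to 15100. Any part of these in the results was not tested.

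The mRNAs of AU-rich element binding proteins can themselves carry such elements, so the longest annotated 3′ UTR of each gene was searched on the sense strand for the pentamer ATTTA and the nonamer TTATTTATT, the core that TTP binds. Overlapping matches were counted, and each nonamer holds 1 pentamer. The nonamer occurred once each in ZFP36, ZFP36L1, ZFP36L2 and ELAVL1 and in 0 of the other 5. These 4 sites are shown because they are the places where the members' own mRNAs have the TTP core. Each line gives the DNA sense strand 5′ to 3′ from GENCODE 29 on GRCh38, with the nonamer in capitals and 10 flanking bases on each side.
ZFP36 3′ UTR site, chr19:39409196-39409224, plus strand: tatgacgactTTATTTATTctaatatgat
ZFP36L1 3′ UTR site, chr14:68788077-68788105, minus strand: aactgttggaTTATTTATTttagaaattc
ZFP36L2 3′ UTR site, chr2:43223448-43223476, minus strand: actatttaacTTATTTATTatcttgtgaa
ELAVL1 3′ UTR site, chr19:7961828-7961856, minus strand: atttatgtatTTATTTATTgaagtgtgaa

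The sites began 507 (ZFP36), 2393 (ZFP36L1), 853 (ZFP36L2) and 1637 (ELAVL1) bases after the stop codon. The ELAVL1 window held 3 pentamers and the ZFP36L2 window 2, against 1 in the other 2 windows. ZFP36 had the densest 3′ UTR, with 5 pentamers in 713 bases or 7.01 per kb, more than 97.4% of listed genes with a 3′ UTR. TIA1 followed with 3.97 per kb. ZFP36L1, ELAVL1 and ZFP36L2 had 2.83, 2.65 and 2.61 per kb, while TIAL1, CELF1 and HNRNPD had 1.81, 1.61 and 1.19, around the median over genes of 1.66. KHSRP had none in its 764 bases. Over the 12567 listed genes with a 3′ UTR, 73.2% held the pentamer and 9.4% the nonamer. A match in these letters does not show binding.

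**Figure D1:**
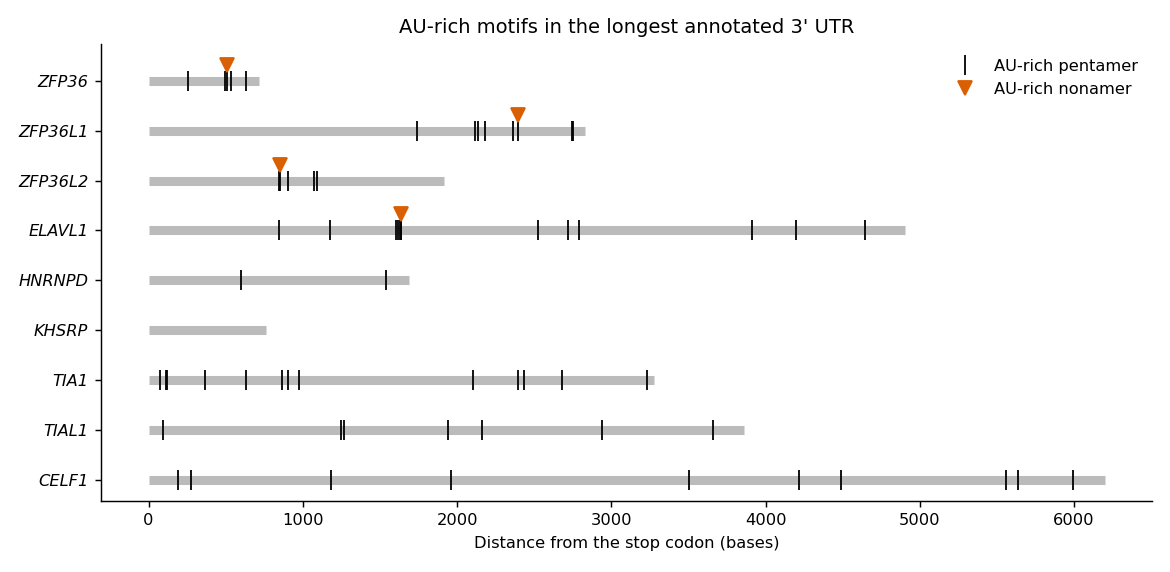
Positions of the AU-rich pentamer (ticks) and nonamer (triangles) along the longest annotated 3′ UTR of each of the 9 genes, in bases from the stop codon; grey bars give the UTR length. The nonamer appears in ZFP36, ZFP36L1, ZFP36L2 and ELAVL1, and KHSRP has no match.

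The gene introduced in the study was examined first. ZFP36 (ENSG00000128016, chromosome 19, 39406813 to 39409412, GRCh38) was present in EV cells at a low level and was raised in every TTP library. The 4 libraries of EV_A held 282.2, 226.5, 247.7 and 277.8 normalized counts, and those of EV_B 213.5, 234, 222.6 and 218.2. TTP_E11 held 10940, 10160, 10320 and 10510, and TTP_H3 14990, 14100, 13340 and 15040. The arms did not overlap, and neither did the TTP clones. The log2 change was 5.67 ± 0.0386 (SE; limma on all genes, adjusted p = 5.83e-35), and 4 genes of the table changed by more. The table gives 1 value per gene, so endogenous and introduced transcripts were counted together. Between the control clones ZFP36 was lower in EV_B by a log2 change of -0.21 (adjusted p = 0.00288).

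The paralogs ZFP36L1 and ZFP36L2, which carry the same pair of CCCH zinc fingers and recruit the same deadenylase, were both lower in every TTP library than in any EV library. ZFP36L1 stood at 3431, 3267, 3176 and 3161 in EV_A and at 3720, 3491, 3493 and 3878 in EV_B. It stood at 2244, 2308, 2228 and 2179 in TTP_E11 and at 2306, 2251, 2512 and 2112 in TTP_H3. The TTP clones thus lay together, and the highest TTP library was below the lowest EV library. ZFP36L1 fell by 0.60 on the log2 scale (SE 0.0307, adjusted p = 9.01e-18 by limma). As a share of the EV level it fell by 34.2%. In bulk RNA a lower level per cell and fewer cells with the transcript cannot be told apart.

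ZFP36L2 was at 2196, 2134, 2296 and 2213 in EV_A, and at 1778, 1755, 1617 and 1524 in EV_B. In TTP_E11 it was at 794.9, 734.7, 739.9 and 698.6, and in TTP_H3 at 810.5, 848.8, 783.1 and 880.1. EV_A was the highest clone, EV_B lay between it and the TTP clones, and neither the arms nor the EV clones overlapped. ZFP36L2 fell by 1.29 on the log2 scale (SE 0.0354, adjusted p = 1.14e-24). Relative to EV it fell by 59.1%. Of all genes, 96.1% had a smaller absolute change, against 83.2% for ZFP36L1. It was also lower in EV_B than in EV_A, by a log2 change of -0.41 (adjusted p = 1.37e-07), and slightly higher in TTP_H3 than in TTP_E11, by 0.16 (adjusted p = 0.0303). The clone with more ZFP36 mRNA was not the one with less ZFP36L2 mRNA, and a relation between the levels was not tested.

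The ratio of the paralogs within each library was also compared, which does not depend on library scaling. It draws on the same values as the changes above and is not separate support for them. The log2 ratio of ZFP36L2 to ZFP36L1 was -0.56 ± 0.0826 for EV_A and -1.13 ± 0.153 for EV_B, against -1.59 ± 0.0703 for TTP_E11 and -1.46 ± 0.176 for TTP_H3 (SD over 4 libraries). Its mean was lower in the 8 TTP libraries by 0.68 on the log2 scale (exact two-sided permutation test over libraries, p = 0.000311, adjusted p = 0.00124 over 4 ratios). The arms overlapped for this ratio, at -1.68 to -1.26 in TTP and -1.35 to -0.47 in EV libraries. The EV clones did not overlap each other. With clone means, 2 against 2, no exact test can pass (adjusted p = 0.667).

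**Figure D2:**
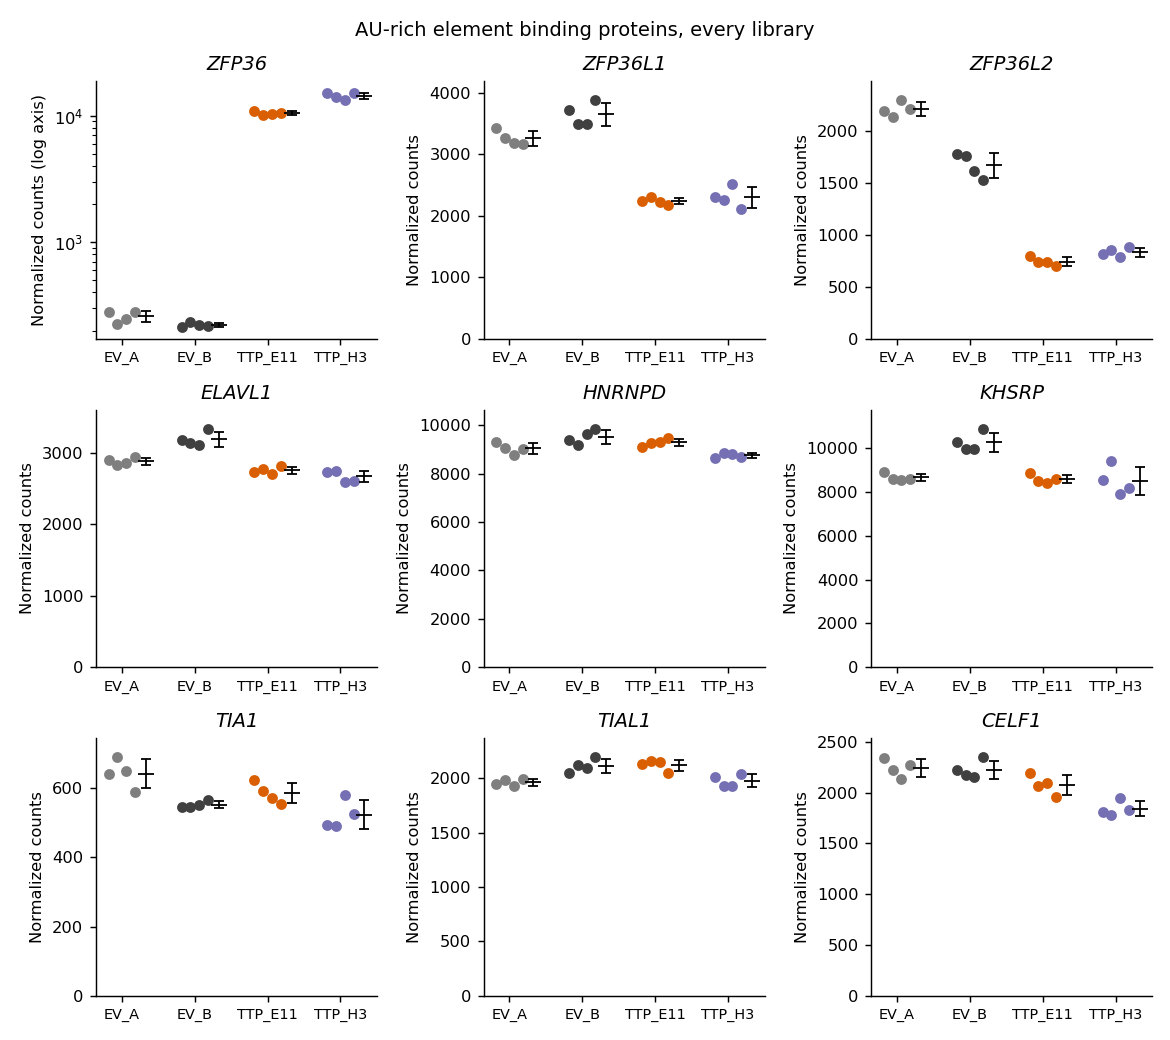
Normalized counts of the 9 genes in each of the 16 libraries, by clone; points are replicates 1 to 4 from left to right, and black bars are the clone mean ± SD. The ZFP36 axis is logarithmic and the other axes start at 0; the arms are separate for ZFP36, ZFP36L1, ZFP36L2 and, narrowly, ELAVL1.

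Summed over the family, the mRNAs stood higher in TTP libraries by a smaller ratio than ZFP36 alone. ZFP36, ZFP36L1 and ZFP36L2 together gave 5727 ± 128 and 5536 ± 166 normalized counts in EV_A and EV_B, and 13460 ± 352 and 17490 ± 705 in TTP_E11 and TTP_H3 (SD over 4 libraries), a ratio of arm means of 2.75. The paralogs alone gave 5468 ± 114 and 5314 ± 171 in the EV clones, and 2982 ± 77.7 and 3126 ± 125 in the TTP clones, a ratio of 0.566. ZFP36 supplied 4.51% ± 0.409 and 4.02% ± 0.249 of the family's normalized counts in EV_A and EV_B, but 77.8% ± 0.689 and 82.1% ± 1.39 in TTP_E11 and TTP_H3. ZFP36L1 supplied 56.9% and 65.8% of these counts in EV_A and EV_B, a share not adjusted for its longer exons. Per kb its range in EV_A (612.5 to 665) overlapped that of ZFP36L2 (577.4 to 621.1). In EV_B the ranges per kb did not overlap, at 676.6 to 751.5 for ZFP36L1 and 412.4 to 481.1 for ZFP36L2. Per kb of merged exons the ZFP36 share was 8.12% to 10.2% in EV and 88.7% to 92% in TTP libraries. No source used here gives the length of the introduced transcript, so the latter rests on the annotated gene. These sums describe RNA, not protein, and were not tested.

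**Figure D3:**
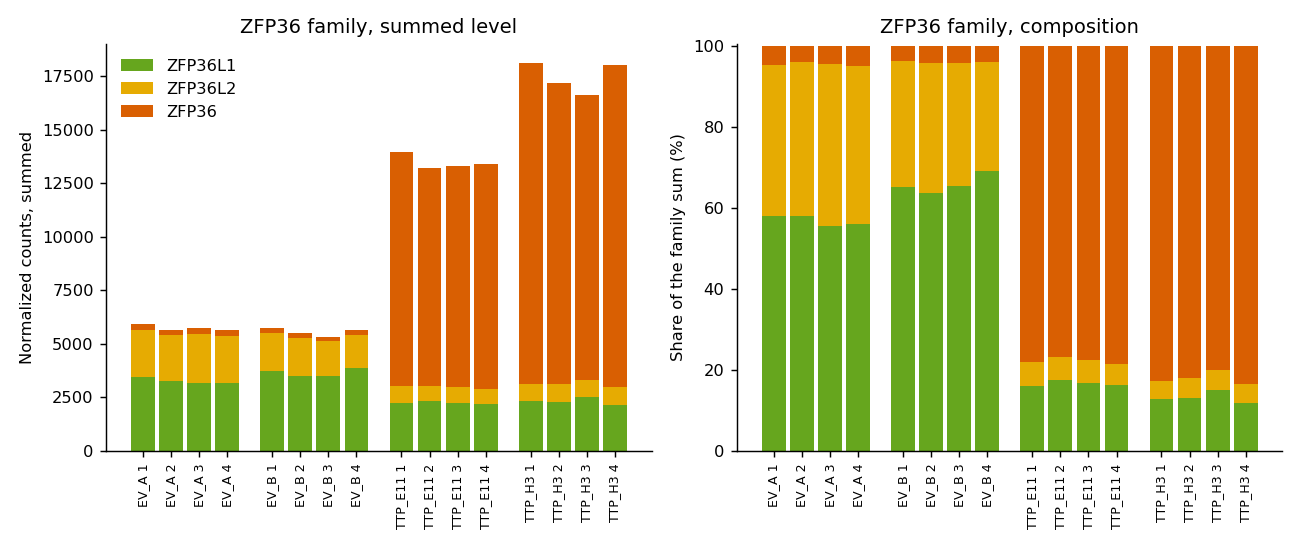
Normalized counts of ZFP36, ZFP36L1 and ZFP36L2 stacked per library (left) and as percentages of their sum (right), with libraries named by clone and replicate. The family sum lies between 5333 and 5910 in EV and between 13200 and 18100 in TTP libraries, while ZFP36L1 and ZFP36L2 together lie lower in each TTP library.

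ELAVL1 (HuR, chromosome 19, 7958579 to 8005659), the ubiquitous member of the Hu family, opposes TTP on many AU-rich mRNAs. It stood at 2897, 2827, 2853 and 2940 in EV_A and at 3175, 3137, 3103 and 3339 in EV_B. It stood at 2732, 2770, 2708 and 2810 in TTP_E11 and at 2728, 2740, 2596 and 2611 in TTP_H3. Every TTP library was below every EV library, but the nearest, 2810 and 2827, almost touched. ELAVL1 fell by 0.16 on the log2 scale (SE 0.024, adjusted p = 5.07e-07), and EV_B was above EV_A by 0.15 (adjusted p = 0.000885). Against EV_A alone, the TTP_E11 clone did not differ past the threshold (-0.06, adjusted p = 0.103), while the other 3 pairs of clones did. With clone means as the unit the call was lost (adjusted p = 0.187). An antisense gene overlaps ELAVL1, and no source says whether reads were counted by strand.

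HNRNPD (AUF1) and KHSRP, which like TTP promote decay of AU-rich mRNAs, were the most abundant members per length in EV cells. HNRNPD (chromosome 4, 82352498 to 82374503) ranged from 8780 to 9327 normalized counts in EV_A, 9198 to 9871 in EV_B, 9118 to 9477 in TTP_E11 and 8668 to 8858 in TTP_H3. The arms overlapped, and the log2 change was -0.04 (95% interval -0.08 to 0, adjusted p = 0.0723). It reached 0.0447, 0.0392 and 0.0487 without EV_A replicate 3, EV_B replicate 2 or TTP_H3 replicate 3, and the value was 0.04 when libraries were scaled to equal totals. In TTP_H3 alone against EV it passed, at -0.09 (adjusted p = 0.0039). A listed antisense gene overlaps HNRNPD, and annotated pseudogenes are named after it.

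KHSRP (chromosome 19, 6413348 to 6424794) stood at 8926, 8599, 8562 and 8587 in EV_A and at 10280, 9977, 9981 and 10900 in EV_B. In TTP_E11 it stood at 8856, 8492, 8416 and 8609, and in TTP_H3 at 8567, 9404, 7911 and 8177. EV_B was thus above every other library, and EV_A lay among the TTP libraries. KHSRP fell by 0.14 on the log2 scale against both EV clones (SE 0.0276, adjusted p = 3.28e-05), but EV_B exceeded EV_A by 0.25 (adjusted p = 1.09e-05). With EV_A alone as control the change was -0.02 (adjusted p = 0.603), and with EV_B alone -0.27. The clone means did not pass (limma, adjusted p = 0.331). The microRNA gene MIR3940 overlaps KHSRP on the same strand, and the annotated pseudogene KHSRPP1 is named after it.

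The ratio of the stabiliser ELAVL1 to these destabilisers moved little. For ELAVL1 to HNRNPD the mean log2 ratio was -1.73 in TTP and -1.62 in EV libraries, a difference of -0.12 (exact two-sided permutation test, p = 0.000622, adjusted p = 0.00124 over 4 ratios). Its ranges overlapped slightly, at -1.78 to -1.67 and -1.69 to -1.55. For ELAVL1 to KHSRP the means were -1.66 and -1.64, a difference of -0.02 (adjusted p = 0.584). These are ratios of normalized counts, not of molecules, since the genes differ in length.

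TIA1 and TIAL1 encode closely related proteins that silence translation and gather in stress granules. TIA1 (chromosome 2, 70209444 to 70248660) ranged from 589.3 to 690.6 in EV_A, 544.7 to 567 in EV_B, 555.8 to 624.4 in TTP_E11 and 491.4 to 581.6 in TTP_H3. The arms overlapped widely, and EV_A was the highest clone. The log2 change in TTP was -0.11 (SE 0.0426, adjusted p = 0.0262). The log2 difference of EV_B from EV_A was -0.21 (adjusted p = 0.00528). The arm difference did not pass without EV_A replicate 2, TTP_E11 replicate 4, TTP_H3 replicate 1 or TTP_H3 replicate 2 (adjusted p = 0.0742, 0.0596, 0.0604 and 0.0597), nor with equal totals (-0.03, adjusted p = 0.59), and against EV_B alone it was 0.0002. TIA1 shares annotated exon sequence on the same strand with C2orf42.

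TIAL1 (chromosome 10, 119571802 to 119597029) ranged from 1928 to 1993 in EV_A, 2047 to 2195 in EV_B, 2045 to 2161 in TTP_E11 and 1925 to 2043 in TTP_H3. EV_A and TTP_H3 lay low and EV_B and TTP_E11 high, so each arm held 1 low and 1 high clone, though the TTP clones did not differ past the threshold (adjusted p = 0.0637). The log2 change between arms was 0.01 (95% interval -0.05 to 0.06, adjusted p = 0.82), whereas EV_B was above EV_A by 0.11 (adjusted p = 0.0205). With equal totals the arm difference was 0.09 (adjusted p = 0.00365). The log2 ratio of TIA1 to TIAL1 averaged -1.89 in TTP and -1.77 in EV libraries, a difference that did not pass (-0.11, exact two-sided permutation test, p = 0.148, adjusted p = 0.197).

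CELF1, which binds GU-rich elements and recruits decay factors to them, differed from ELAVL1 and KHSRP in that the EV clones lay together. CELF1 (chromosome 11, 47465933 to 47565569) stood at 2339, 2218, 2129 and 2269 in EV_A and at 2225, 2171, 2152 and 2350 in EV_B. It stood at 2194, 2062, 2091 and 1960 in TTP_E11 and at 1810, 1782, 1947 and 1828 in TTP_H3. Every TTP_H3 library lay below every other library, though 1960 in TTP_E11 replicate 4 was close to its highest. Only the highest TTP_E11 library reached into the EV range. CELF1 fell by 0.19 on the log2 scale (SE 0.0292, adjusted p = 7.77e-07), and EV_B differed from EV_A by -0.01 (95% interval -0.09 to 0.08). The fall was larger in TTP_H3 (-0.28) than in TTP_E11 (-0.10), and this difference between clones passed (-0.17, adjusted p = 0.00506). Exons of NDUFS3 and PTPMT1 overlap CELF1 on the other strand. With clone means the arm difference did not pass (adjusted p = 0.136).

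Over the 9 genes, 7 passed the threshold in TTP versus EV, where 70% of all genes did. ZFP36 was higher and 6 were lower, against backgrounds of 35.4% higher and 34.6% lower over all genes. ZFP36 is the introduced gene, so its call in each comparison of TTP with EV follows from the design. Without it, 6 of the other 8 members were called, all lower. The median log2 change was -0.14, beside 0 over all genes. Scaling to equal totals moved the split over all genes from 5261 higher and 5144 lower to 6450 and 4060. It left 7 members called, but with TIAL1 higher and TIA1 no longer passing. Against both EV clones, TTP_E11 gave 6 called members (64.6% of all genes), with 1 higher and 5 lower (32.6% and 32%). TTP_H3 gave 8 (64.7%), with 1 higher and 7 lower (32.7% and 32%). Both comparisons share the EV libraries. The EV clones differed in 8 of the 9 members, where 36.8% of all genes differed. In EV_B 5 were higher and 3 lower, against 20.2% and 16.6% of all genes. The TTP clones differed in 4 (11.7% of all genes), with 2 higher in TTP_H3 (6.35%) and 2 lower (5.32%).

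Changes seen in all 4 pairs of 1 TTP clone with 1 EV clone, each passing with the same sign, were found for 4 members, where 38.5% of all genes had them. They were the introduced gene ZFP36 higher (19% of all genes) and ZFP36L1, ZFP36L2 and CELF1 lower (19.5%). CELF1 left this set with TMM or equal-total scaling, with edgeR on the recovered reads, without both libraries that stood apart, or without 1 library (EV_A replicate 1 or 4, EV_B replicate 1 or 4, or TTP_E11 replicate 2, 3 or 4). The ZFP36 family members stayed in it under each of these. In 4 members the 8 libraries of 1 arm all lay beyond the 8 of the other, as in 31.8% of all genes. Of these, the introduced gene ZFP36 had TTP above, and ZFP36L1, ZFP36L2 and ELAVL1 had TTP below (16.2%). The authors' deposited table, with an adjusted p under 0.05 as the limit, also gave ZFP36 higher and ZFP36L1, ZFP36L2, ELAVL1, KHSRP and CELF1 lower, but not TIA1 (0.128).

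**Figure D4:**
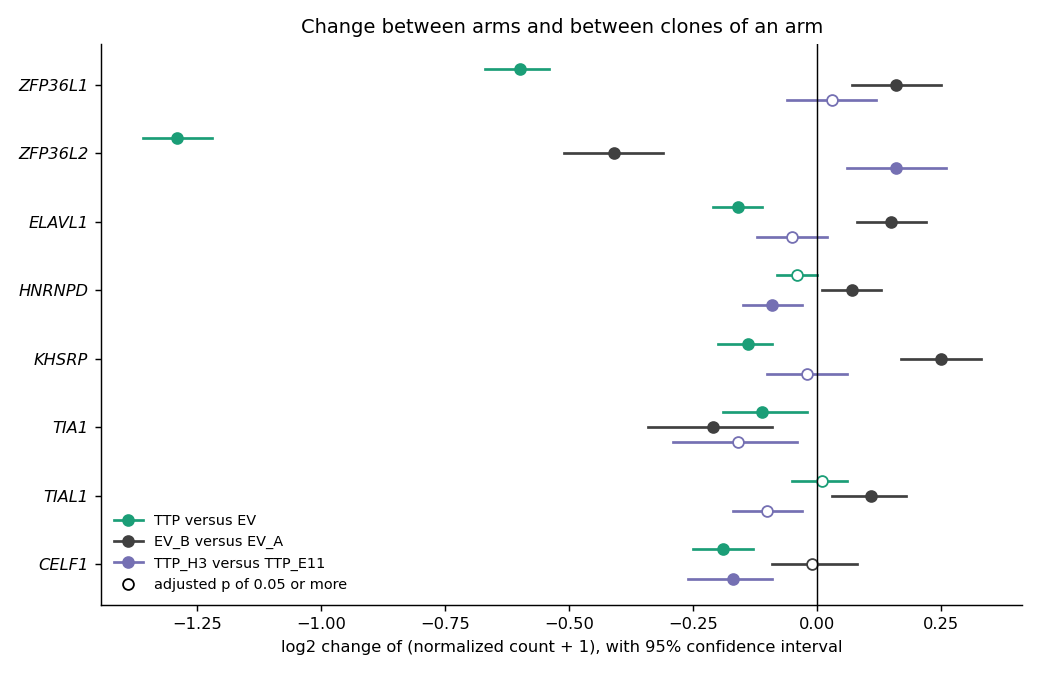
log2 change of each member except ZFP36 between the arms (green), between the EV clones (black) and between the TTP clones (purple), with 95% confidence intervals; open points did not pass an adjusted p of 0.05. For HNRNPD, KHSRP, TIA1 and TIAL1 the EV clones lie farther apart than the arms, and for ELAVL1 the sizes are close (0.15 and -0.16).

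Levels of different genes were compared as normalized counts per kb of merged exons. In EV_A the order was KHSRP (1900 ± 37.8), HNRNPD (1297 ± 32.1), ZFP36L1 (631.5 ± 24.1), ZFP36L2 (597.9 ± 18), ELAVL1 (413.9 ± 7.22), TIAL1 (266.9 ± 4.11), CELF1 (214.2 ± 8.46), ZFP36 (128.6 ± 13.1) and TIA1 (97.24 ± 6.3). Only the neighbours ZFP36L1 and ZFP36L2 overlapped there. In EV_B ELAVL1 (458.4 ± 15) and ZFP36L2 (451.5 ± 32.3) exchanged places but overlapped. In the TTP clones ZFP36 came first, at 5215 ± 168 per kb in TTP_E11 and 7147 ± 403 in TTP_H3. These ZFP36 levels rest on the length of the annotated gene, since no source used here gives that of the introduced transcript. ZFP36L2 dropped to the seventh place, at 200.8 ± 10.8 and 224.7 ± 11.5 per kb, below ELAVL1 and TIAL1. Its range overlapped that of CELF1 in TTP_E11 but not in TTP_H3.

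The genes whose log2 values followed a member most closely over the 16 libraries were listed by Pearson correlation, as a description in which the points share clone and library. ZFP36 was followed most closely by TNFRSF1B (r = 0.9966) and ERBB3 (0.9956). ZFP36L2 was followed by EHBP1L1 (0.9945) and ATP11A (0.9942), and ZFP36L1 by EIF3A (0.9906) and CKAP5 (0.9897). ACTN1 led for ELAVL1 (0.979) and stood second for KHSRP (0.937), behind AGAP1 (0.9679), while NCS1 was second for ELAVL1 (0.9749). VARS2 (0.9373) and LMF2 (0.9352) followed CELF1, and KNTC1 (0.9058) and BTAF1 (0.9035) followed TIA1. The likeness was weaker for NFXL1 and RAD1 with TIAL1 (0.8518 and 0.8422) and for C5orf30 and HNRNPA1 with HNRNPD (0.8491 and 0.8319).

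Other proteins of the pathway were examined from 4 lists, to be read beside the 35.4% of all genes that were higher and the 34.6% that were lower in TTP. With clone means as the unit these shares were 14.8% and 14.8%. The first list held 29 other RNA-binding proteins, not all of which bind AU-rich or GU-rich elements. Of these 26 were listed, the neuronal ELAVL2, ELAVL3 and ELAVL4 not being among the genes of the table. Of these 6 rose, 13 fell and 7 did not pass, with a median log2 change of -0.07. MSI2, a Musashi protein, averaged 28.06 ± 5.65 and 22.02 ± 6.97 normalized counts in EV_A and EV_B, and 223 ± 13.8 and 198.7 ± 36.5 in TTP_E11 and TTP_H3 (log2 change 3.06, adjusted p = 7.87e-18). CELF2, the paralog of CELF1, rose by 0.76 on the log2 scale, and was lower in TTP_H3 than in TTP_E11 (-0.32, limma adjusted p = 0.000633). Over the genes named from the lists the largest adjusted p was 4.29e-05, for CNOT10. CPEB2, a cytoplasmic polyadenylation element binding protein, fell by 0.84, FUBP3, a KH-domain relative of KHSRP, by 0.72, and RC3H2 (roquin-2) by 0.42. CPEB2 was also lower in EV_B than in EV_A (-0.45, adjusted p = 8.52e-07), and FUBP3 was higher there (0.1, adjusted p = 0.0203, both by limma). With equal totals 11 rose and 10 fell (43.4% and 27.3% of all genes), and with clone means 2 rose and 5 fell. Of the 26, 12 were higher and 2 lower in EV_B than in EV_A, against 20.2% and 16.6% of all genes.

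The p38-MK2 kinase pathway phosphorylates TTP, and 14-3-3 proteins then bind and sequester it. Of 21 genes of this list 3 rose, 11 fell and 7 did not pass (median -0.08), so 14 passed, where 70% of all genes did. DUSP1, a phosphatase that switches p38 off, stood at 244.8 ± 9.27 and 334.3 ± 30.3 normalized counts in EV_A and EV_B, and at 634.4 ± 34.3 and 652.6 ± 77.6 in TTP_E11 and TTP_H3 (log2 change 1.16). EV_B was above EV_A (0.44, adjusted p = 2.43e-05). MAP2K3 (MKK3), which activates p38, rose by 0.57 on the log2 scale. It stood higher in TTP_H3 than in TTP_E11 (0.28, limma adjusted p = 3.73e-06) and in EV_B than in EV_A (0.1, adjusted p = 0.0394). MAP2K6 (MKK6), its partner, fell from 17.8 ± 1.6 and 13.3 ± 6.47 to 5.837 ± 1.41 and 2.988 ± 2.69, few counts in all clones. The 14-3-3 genes YWHAZ and YWHAH fell by 0.66 and 0.46. YWHAZ was also higher in EV_B than in EV_A (0.19, limma adjusted p = 1.24e-06). With equal totals 7 genes of the list rose and 9 fell (43.4% and 27.3% of all genes). Without EV_B replicate 4 the number that rose was 5, a setting for which the share of all genes was not counted. With clone means 2 rose and 8 fell. In EV_B 8 of the 21 were higher and 1 lower than in EV_A, against 20.2% and 16.6% of all genes.

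Of 21 genes listed as effectors or partners of TTP (the effector list), 10 rose, 7 fell and 4 did not pass (median 0.07). This is near the share of all genes in the lower direction. EDC3, an enhancer of decapping, rose by 0.49, the translational repressor partner GIGYF1 by 0.26 and the CCR4-NOT subunit CNOT10 by 0.20 on the log2 scale. For EDC3 the TTP clones differed, with TTP_H3 above TTP_E11 by 0.23 (limma adjusted p = 0.00413). SH3KBP1 (CIN85) fell by 0.27 and the deadenylase CNOT8 by 0.20. The EV clones differed by 0.29 for SH3KBP1 and by -0.20 for GIGYF1 (EV_B against EV_A, adjusted p = 8.29e-07 and 0.000766). With equal totals 12 rose and 3 fell (43.4% and 27.3% of all genes). With clone means limma called 1 higher and 0 lower, and 2 and 2 at an unadjusted p under 0.05. Of 14 stress granule proteins that co-localise with TIA1, 3 rose, 9 fell and 2 did not pass (median -0.12). CAPRIN1 and DDX3X fell by 0.35 and 0.31, and USP10 and UBAP2L rose by 0.23 and 0.17. USP10 was also higher in EV_B than in EV_A, by 0.20 (adjusted p = 4.31e-05). With clone means limma called 0 higher and 2 lower, and 1 and 6 at an unadjusted p under 0.05. For neither list was the share of all genes at this unadjusted limit counted, so these numbers have no background. In EV_B 6 of the 14 were higher and 0 lower than in EV_A, against 20.2% and 16.6% of all genes.

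**Figure D5:**
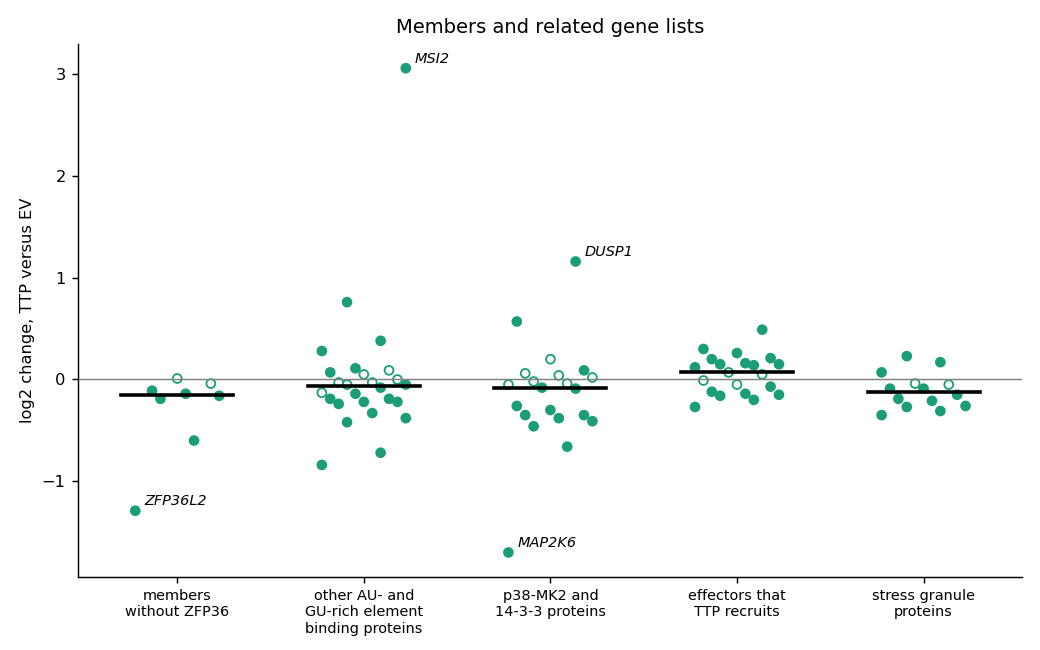
log2 change in TTP versus EV of the 8 members other than ZFP36 and of 4 lists of related genes; each point is a gene, filled where the adjusted p was under 0.05, and black lines are medians. Most genes lie within 0.5 of 0; ZFP36L2, MSI2, DUSP1 and MAP2K6 lie beyond 1 in either direction.

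The 3′ UTR motif was set beside the changes. Among the 4 members with the nonamer, ZFP36 was higher and ZFP36L1, ZFP36L2 and ELAVL1 were lower in TTP. The ZFP36 value includes the introduced transcript, and no source used here says whether that transcript holds the annotated 3′ UTR. Among the 5 without it, KHSRP, TIA1 and CELF1 were lower, while HNRNPD and TIAL1 did not pass. Of the 1181 listed genes with the nonamer 49.7% were called lower and 26.4% higher, against 35.5% and 39.6% of the others. The 3′ UTRs of the former were also longer, with a median of 3096 against 1252 bases. No test was made of these shares, and the part of UTR length in them was not tested.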

How the data were processed

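RNA-seq of 16 libraries from 4 clones was analysed. Per the submitters' processing notes the tools were Trimmomatic 0.36, STAR 2.5.2b, featureCounts, Subread 1.5.2 and DESeq2, with build GRCh38. No source used here states roles, settings or gene annotation. The authors deposited a normalized signal per gene and library, by its values the read count divided by 1 size factor per library. The authors also deposited their own TTP versus EV comparison, as a log2 fold change with a p-value, raw and adjusted. All values were whole multiples of 1 step per library within 0.001, but in replicates 1 and 3 of TTP_H3 the step was so near 1 that this is a weaker check. The smallest mean was 9.68, so rarer genes were not analysed here.

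limma 3.58.1 (R 4.3.3, trend, robust) was fitted to log2(value + 1) of all 14857 genes with 4 clone groups and no filter, with Benjamini-Hochberg adjustment and a threshold of 0.05. Fold changes of genes with few counts are understated on this scale. Alternatives were pseudocounts, a filter, scalings, edgeR 4.0.16 and DESeq2 1.42.0 on recovered reads, the replicate block, clone means, single controls and left-out libraries. Ratios within a library were compared by exact permutation. Gene models, lengths and 3′ UTRs came from GENCODE 29. The members and lists were chosen with earlier results of these data known. Named were all members, at most 3 genes per direction and list with the largest changes in all 4 clone pairs, and the 2 genes most like each member. A gene that this rule names is not reported here. Leaving out EV_B replicate 4 with TTP_H3 replicate 3 was chosen after seeing the data.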

Additional observations from a re-analysis of the deposited data

Results flagged for a closer look

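The change against EV differed between TTP_H3 and TTP_E11 for 4 members, by the limma contrast of the clones, which called 11.7% of all genes. TTP_H3 was above TTP_E11 by log2 differences of 0.45 for ZFP36 (adjusted p = 1.71e-06) and 0.16 for ZFP36L2 (adjusted p = 0.0303). For HNRNPD and CELF1 the log2 differences were -0.09 (adjusted p = 0.0488) and -0.17 (adjusted p = 0.00506). All 4 libraries of TTP_H3 lay above all 4 of TTP_E11 for ZFP36, and below them for HNRNPD and CELF1. The number of members called fell to 2 without TTP_E11 replicate 2, TTP_E11 replicate 3, TTP_H3 replicate 2 or TTP_H3 replicate 4. The share of all genes was not counted with these left out. Of the 36 groups of 4 libraries examined, KHSRP in EV_A held 1 library far from the others, replicate 1 at 8926 normalized counts. Chance marks about 1 in 20 such groups.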

How the results depend on the processing

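A total of 27 results was recomputed under 29 settings, and 686 of 727 values kept their direction and their side of the threshold, or for counts stayed within 1.5 times. The changes of ZFP36, ZFP36L1 and ZFP36L2 passed under every setting run. With equal totals the members called in TTP_H3 versus EV numbered 5, and the log2 changes were 0.04 for HNRNPD, -0.03 for TIA1 and 0.09 for TIAL1. Under the same scaling 11 of the other RNA-binding proteins and 7 p38-MK2 and 14-3-3 genes were higher, where 43.4% of all genes were. In the effector list 3 genes were lower, where 27.3% of all genes were. With clone means (2 against 2) 3 members were called, where 29.6% of all genes were, and the log2 changes of ELAVL1, KHSRP, TIA1 and CELF1 (-0.16, -0.14, -0.11 and -0.19) did not pass. There, 2 of the other binding proteins were higher and 5 lower, and 1 gene of the effector list was higher and 0 lower. Of the stress granule genes 0 were higher and 2 lower. At an unadjusted limma p under 0.05, 2 genes of the effector list were lower and 1 stress granule gene was higher. The share of all genes at this unadjusted limit was not counted. The ratios of ZFP36L2 to ZFP36L1 (-0.68) and ELAVL1 to HNRNPD (-0.12) could not pass an exact test with 2 clones against 2. With 2 groups in place of 4 clones TIA1 (-0.11, adjusted p = 0.127) did not pass. With EV_A alone KHSRP (-0.02) did not pass and 11 of the other binding proteins were higher. Shares of all genes were not counted with a single control, with the replicate block or with libraries left out. With EV_B alone HNRNPD (-0.08) passed, and TIA1 and TIAL1 were at 0.0002 and -0.05. Leaving out 1 library at a time gave 2 to 5 members called in TTP_H3 versus TTP_E11 and 3 to 5 higher p38-MK2 and 14-3-3 genes. It gave log2 changes of -0.05 to -0.03 for HNRNPD, -0.13 to -0.09 for TIA1 and -0.0011 to 0.02 for TIAL1, and -0.03 to 0.0011 for the ratio of ELAVL1 to KHSRP. Beyond these constructions, the cause was not tested. With the replicate block 7 members were called in TTP versus EV, as without it, and no call of a member's change between arms moved. The block gave 7 members called in EV_B versus EV_A and 3 in TTP_H3 versus TTP_E11, against 8 and 4 without it. Deviations of same-numbered libraries correlated at -0.088 to 0.096 over 24 pairs of libraries. Whether same-numbered libraries were handled together was not tested. Without EV_B replicate 4 and TTP_H3 replicate 3 together, 7 members were called in TTP versus EV and 3 in all 4 clone pairs.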
